A study of Homo sapiens with 3 samples.

Results

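The kinesins are a family of motor proteins encoded by the KIF and KIFC genes. The family was read here by RNA sequencing in PC-3, a human cell line derived from prostate cancer. Members were all protein-coding genes whose symbol is KIF with a number and optional letters, plus KIFC1, KIFC2 and KIFC3, listed in at least 1 library. There were 38 such genes among 18331 listed identifiers. They were read as 12 mitotic kinesins, 17 transport kinesins and 9 other kinesins. KIF2B, KIF4B, KIF19 and KIF25 were not analysed here. The 3 libraries were each made 7 days after lentiviral delivery of a short hairpin RNA (shRNA), and all groups share that delivery. Of these, 2 carry the label KMT2D shRNA with the genotype KMT2D deficiency, numbered 1 and 2, and 1 carries the label control shRNA with the genotype KMT2D normal. The labels do not say whether the numbers stand for different hairpins or for separate cultures. The p-values rest on the spread between the 2 libraries labelled KMT2D shRNA, pooled across genes. The 1 control library adds no spread of its own, and the spread that was measured may be technical.

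Kinesins use the energy of ATP to move along microtubules or to take microtubules apart. Mitotic kinesins build the spindle, move chromosomes and complete cytokinesis, and their RNA is known to rise as cells approach division. Transport kinesins carry vesicles, organelles and RNA, and much of the family lives in neurons and cilia. In promoters of genes expressed late in the cell cycle a short element near the transcription start, the cell cycle genes homology region (CHR), is bound by the DREAM and MuvB complexes, often with CCAAT boxes upstream that bind NF-Y.

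Most promoters of the mitotic kinesins held these letters, and the following windows are picked examples. Each window holds the 100 bases that end at the base before the annotated start, from the RefSeq promoter table of build GRCh38.p14, written 5′ to 3′ on the gene's own strand. Capitals mark the CHR core, TTTGAA or TTTAAA, and the CCAAT box, each read on both strands. The first 5 are mitotic kinesins that rose and that hold both elements in the printed bases. Of the others that rose, KIF2C and KIF15 lack the CCAAT box. The cores nearest the start in KIF14 and KIF20B lie downstream of it. KIF22 is a mitotic kinesin that did not pass the test, and KIF3C is the transport kinesin with the largest rise. KIF18B and KIFC1, which hold the core and also did not pass, are not printed.
KIF20A, chr5:138179012-138179111, plus strand: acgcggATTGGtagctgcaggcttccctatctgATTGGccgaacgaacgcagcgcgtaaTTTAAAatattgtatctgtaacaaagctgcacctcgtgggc
KIF23, chr15:69414249-69414348, plus strand: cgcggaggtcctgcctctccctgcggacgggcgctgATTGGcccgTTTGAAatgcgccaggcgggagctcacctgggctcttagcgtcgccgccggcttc
KIF18A, chr11:28108157-28108256, minus strand: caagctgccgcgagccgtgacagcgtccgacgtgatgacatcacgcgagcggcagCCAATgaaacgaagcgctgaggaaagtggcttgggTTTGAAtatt
KIF4A, chrX:70290004-70290103, plus strand: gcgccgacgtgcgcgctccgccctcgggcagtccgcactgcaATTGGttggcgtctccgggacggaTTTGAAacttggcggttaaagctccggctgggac
KIF11, chr10:92593030-92593129, plus strand: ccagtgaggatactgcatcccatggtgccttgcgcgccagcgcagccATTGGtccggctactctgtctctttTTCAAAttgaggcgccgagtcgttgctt
KIF22, chr16:29790651-29790750, plus strand: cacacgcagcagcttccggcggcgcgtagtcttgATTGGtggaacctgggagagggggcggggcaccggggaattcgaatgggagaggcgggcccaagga
KIF3C, chr2:25982498-25982597, minus strand: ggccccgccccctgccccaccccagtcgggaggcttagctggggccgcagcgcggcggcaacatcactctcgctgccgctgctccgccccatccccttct

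A promoter entry was had for 31 of the 38 kinesins, all 12 mitotic kinesins among them, each entry covering 250 bases before to 50 after a start. KIF13B, KIF21B, KIF5A, KIFC2, KIFC3, KIF26B and KIF27 had none. The CHR core was found for 11 of 12 mitotic kinesins (91.7%), for 2 of 12 transport kinesins (16.7%) and for 0 of 7 other kinesins. Among the 13764 listed genes with an entry 22.9% held it, and among all 35116 promoter windows 24.0%. KIF22 was the mitotic kinesin without it. In each of the other 11 a core reached to within 60 bases upstream of the start or lay downstream of it, a window chosen after the positions were seen, against 8.03% of listed genes and 0 of 12 transport kinesins.

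The CCAAT box was found for 10 of 12 mitotic kinesins (83.3%), 4 of 12 transport kinesins (33.3%) and 42.5% of listed genes. KIF2C and KIF15 were the mitotic kinesins without it. The E2F element, searched as TTTCGCGC or TTTGGCGC on both strands, was found for KIF15 alone among the mitotic kinesins, and for 2.22% of listed genes. The E2F and CHR matches of KIF15 lie next to each other without sharing a base. A match is a run of letters and was not tested as a site of binding, and KIF18B and KIFC1 held the core without passing the expression test described next.

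**Figure D1:**
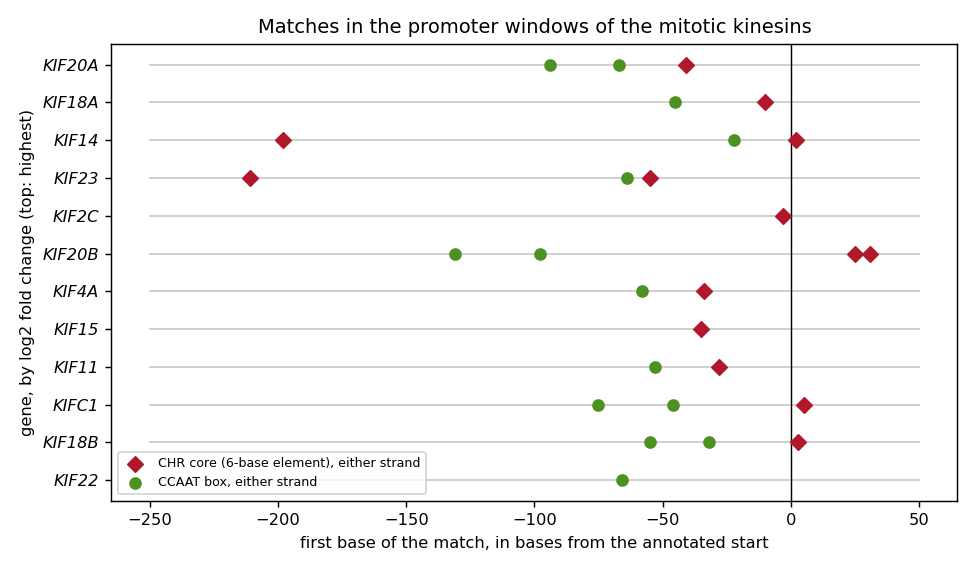
Each row is 1 mitotic kinesin, ordered by its log2 fold change, and the horizontal axis gives bases from the annotated start. Diamonds mark CHR core matches and circles CCAAT boxes on either strand; 11 of the 12 rows hold a diamond and 10 hold a circle, and KIF22, the lowest row, holds a circle only.

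The libraries were compared with their labels before any kinesin was read. KMT2D, the targeted histone methyltransferase gene, stood at 107, 138 and 100.1 CPM (counts scaled to library size) in labelled library 1, labelled library 2 and the control, so neither labelled library was lower (log2 fold change 0.29, SE 0.18, edgeR adjusted p = 0.227). When the dependence on transcript length described below was taken out, its value was -0.68 (adjusted p = 0.00787), so its direction rests on that choice. Directions below are therefore given for the libraries labelled KMT2D shRNA and not for a loss of KMT2D. Library totals were 5123795 to 5559449 estimated counts. Epithelial markers were present (5 of 5 above 3 counts, summed 836, 881 and 1432 CPM), and leukocyte markers summed to 2.10 to 3.15 CPM. Of the fibroblast markers COL1A1 was high in all libraries, at 373 to 397 CPM, and DCN and LUM were at 3 counts or fewer. The endothelial marker sum was 135, 102 and 69.0 CPM, most of it KDR, while VWF and CDH5 were not analysed here. Fold change followed transcript length across genes in both labelled libraries (Spearman 0.456 and 0.46 over 14016 genes, which are not independent replicates and share 1 control), and the counts of calls are also given with that trend removed.

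Mitotic kinesins were higher in the libraries labelled KMT2D shRNA. All 12 were tested, of which 9 rose, 0 fell and 3 did not pass edgeR's quasi-likelihood test at a Benjamini-Hochberg adjusted p under 0.05. That is 75% of the members, against 16.5% of all 14016 tested genes that rose. Of the tested genes within their span of transcript lengths 19.0% rose. In both labelled libraries 11 of the 12 lay above the control, against 41.5% of all genes, and 1 lay below it in both, against 42.8%. Their median log2 fold change was 0.71, or 0.70 in library 1 and 0.68 in library 2, where the median over all tested genes was -0.0060. In bulk RNA a larger share of dividing cells and more RNA per dividing cell cannot be told apart. All levels that follow are FPKM, the deposited value scaled by transcript length and library total, and all fold changes are on the log2 scale of the count test.

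KIF20A carries the chromosomal passenger complex to the spindle midzone at anaphase, and it rose most. Its level was 15.4 FPKM in labelled library 1, 16.7 in library 2 and 5.09 in the control. Both labelled libraries thus stood about equally far above the control, on 277, 299 and 99 counts. The log2 fold change of KIF20A was 1.64 (SE 0.22, edgeR adjusted p = 6.62e-08), a fold of 3.11. It was the mitotic kinesin that passed under all 6 alternative count tests, with an adjusted p of 7.77e-08 to 0.0114. KIF20A overlaps CDC23 in the RefSeq annotation. In all 7 kinesins overlap another listed gene there (KIF15, KIF24, KIF2A, KIF7, KIF9 and KIFC2 besides), and no strand-specific step is described, so reads of such pairs may be mixed.

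KIF23 and KIF14 act in cytokinesis beside KIF20A. KIF23, the motor of the centralspindlin complex, had 15.3, 13.7 and 7.96 FPKM in labelled library 1, labelled library 2 and the control. It rose by 0.82 (SE 0.20, edgeR adjusted p = 0.0014). KIF14, which works with citron kinase at the midbody, had 4.58, 6.00 and 2.80 FPKM. It rose by 0.90 (SE 0.23, edgeR adjusted p = 0.00182), and it differed most between the labelled libraries of all mitotic kinesins, by 0.42 on the log2 scale. KIF20B, needed for late cytokinesis, had 4.35, 4.13 and 2.50 FPKM and rose by 0.74 (SE 0.23, edgeR adjusted p = 0.012).

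KIF2C and KIF18A act on the ends of spindle microtubules, and both rose. KIF2C, a kinesin that takes apart microtubule ends at centromeres, had 19.4, 19.2 and 11.2 FPKM, with labelled libraries that nearly coincide. Its log2 fold change was 0.76 (SE 0.20, edgeR adjusted p = 0.00241). KIF18A, which damps chromosome movements at the metaphase plate, had the lowest level of the mitotic kinesins in the control, at 2.42 FPKM on 47 counts, against 4.63 and 4.88 FPKM in the labelled libraries. It rose by 0.95 (SE 0.29, edgeR adjusted p = 0.0103).

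KIF11 pushes the spindle poles apart, and KIF15 can share that task. KIF11 had 12.4, 11.3 and 7.73 FPKM in labelled library 1, labelled library 2 and the control, a rise of 0.59 (SE 0.19, edgeR adjusted p = 0.0141). KIF15 had 5.19, 5.62 and 3.52 FPKM, a rise of 0.60 (SE 0.23, edgeR adjusted p = 0.0416). KIF15 was nearest to the threshold of the 9 that rose, and it passed 1 of the 6 alternative count tests, with an adjusted p of 0.0393 to 0.50. KIF4A, a motor on chromosome arms that also limits the central spindle with PRC1, had 13.7, 11.4 and 7.71 FPKM and rose by 0.68 (SE 0.20, edgeR adjusted p = 0.00653). KIF4A has a near-identical gene copy, KIF4B, not analysed here. The deposited estimates of KIF4A were whole numbers in all 3 libraries, and whether reads are shared with the copy was not tested.

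KIF18B, KIFC1 and KIF22 did not pass. KIF18B, a motor at the tips of astral microtubules, had 22.0, 23.9 and 18.9 FPKM in labelled library 1, labelled library 2 and the control (log2 fold change 0.27, SE 0.18, edgeR adjusted p = 0.258). KIFC1, which moves to minus ends and gathers extra centrosomes into poles, had 20.2, 20.9 and 16.6 FPKM (log2 fold change 0.28, SE 0.19, edgeR adjusted p = 0.267). KIF22, which binds DNA and pushes chromosome arms outward, was the mitotic kinesin with both labelled libraries below the control, at 19.7 and 18.0 against 21.6 FPKM (log2 fold change -0.22, SE 0.19, edgeR adjusted p = 0.407).

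These 3 genes differed from the 9 in base composition and in the level of the control library, which is also the denominator of the fold change. Their control levels were 16.6 to 21.6 FPKM, above those of all 9 genes that rose (2.42 to 11.2 FPKM). Their transcripts had 57.9% to 60.4% GC, where those of the 9 had 34.2% to 50.1%. In the labelled libraries the levels overlapped, with KIF2C at 19.4 and 19.2 FPKM and KIF22 at 19.7 and 18.0. Over the 12 mitotic kinesins the Spearman coefficient of fold change with GC content was -0.55. It was 0.082 over the 15 tested transport kinesins and -0.19 over all 33 tested kinesins. These coefficients are descriptions over genes that share libraries. With length and GC trends removed, as described below, KIFC1 at 0.46 lay above KIF4A at 0.40. KIF18B and KIF11 were then both at 0.22, and KIF22 at 0.075 stayed below all 9. The split was noticed after the calls were known, and the part of GC content or level in it was not tested.

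**Figure D2:**
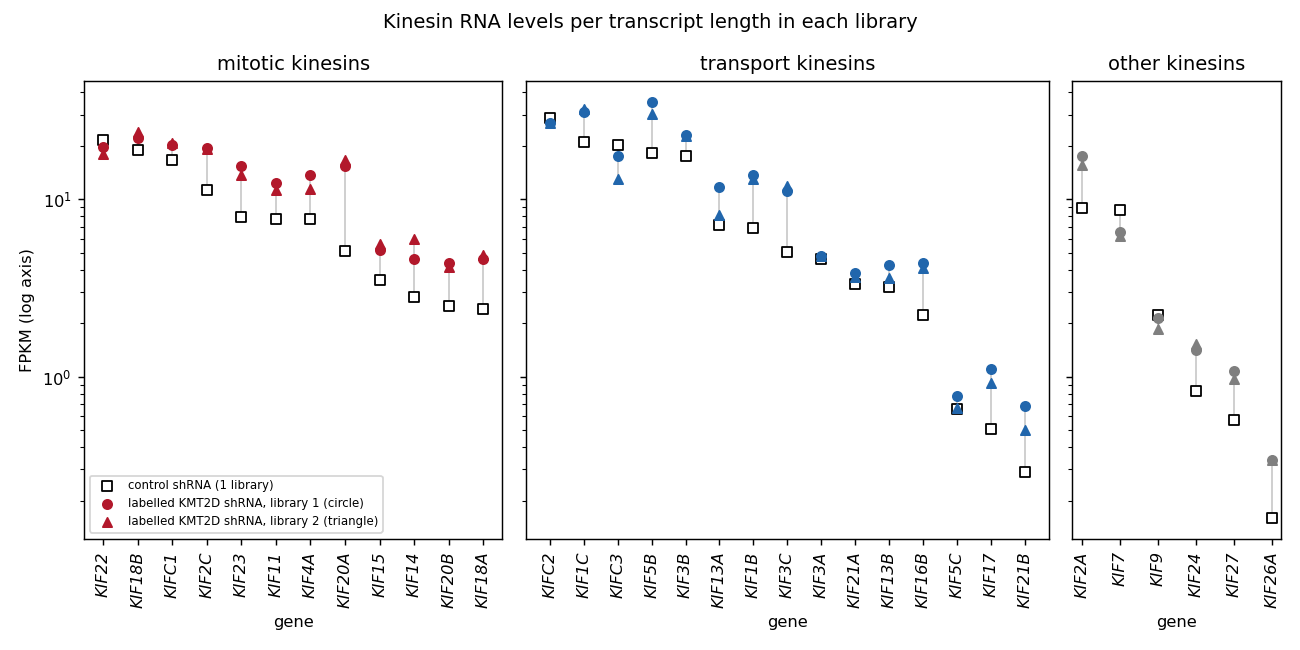
Points give the deposited FPKM (log axis) of each tested kinesin in the control library (open squares), labelled library 1 (circles) and labelled library 2 (triangles), ordered by control level within each class. Among the mitotic kinesins every gene but KIF22 has both filled symbols above the square, and KIF20A shows the widest gap, from 5.09 to 16.7 FPKM.

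Transport kinesins rose in a share near that of tested genes of similar length. Of 17 listed, 15 passed the filter on low counts, and of these 5 rose, 0 fell and 10 did not pass edgeR's test. That is 33.3% against 16.5% of all tested genes. Transport kinesin transcripts are long, with a median of 6135 bases against 2962.5 over all tested genes, and 28.3% of the tested genes within their span of lengths rose. Their median log2 fold change was 0.46, or 0.52 in library 1 and 0.37 in library 2. Both labelled libraries lay above the control for 13 of the 15 (41.5% of all genes, of any length). With the length trend removed 8 of the 15 had a log2 fold change above 0, where 11 of the 12 mitotic kinesins did. KIF1A and KIF5A, heavy chains used mainly by neurons, had at most 3 counts in any library and were not tested.

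KIF3C, which pairs with KIF3A in a motor of the same subfamily as the ciliary transport motor, rose most of the transport kinesins. It had 11.2, 11.9 and 5.01 FPKM in labelled library 1, labelled library 2 and the control. The log2 fold change of KIF3C was 1.18 (SE 0.20, edgeR adjusted p = 9.48e-06), and it passed under all 6 alternative count tests (adjusted p 9.9e-06 to 0.0186). The other subunits of that subfamily did not pass. KIF3A stood at 4.80, 4.77 and 4.60 FPKM (log2 fold change 0.032, SE 0.21, edgeR adjusted p = 0.93). KIF3B had 23.1, 22.8 and 17.6 FPKM (log2 fold change 0.36, SE 0.17, edgeR adjusted p = 0.115), and KIF17, a motor of dendrites and cilia, had 1.11, 0.92 and 0.51 FPKM (edgeR adjusted p = 0.23).

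KIF5B, the conventional kinesin heavy chain of most tissues, was the most abundant kinesin in labelled library 1. It had 35.4, 30.2 and 18.2 FPKM in labelled library 1, labelled library 2 and the control, a rise of 0.83 (SE 0.18, edgeR adjusted p = 0.000347). KIF5C, its counterpart in neurons, had 0.78, 0.67 and 0.66 FPKM (log2 fold change 0.094, SE 0.44, edgeR adjusted p = 0.899). KIF1B, which carries mitochondria and synaptic vesicle precursors, had 13.8, 13.0 and 6.90 FPKM and rose by 0.93 (SE 0.18, edgeR adjusted p = 9.64e-05). KIF1C, a vesicle motor of the same subfamily, had 31.0, 32.4 and 21.0 FPKM and rose by 0.57 (SE 0.17, edgeR adjusted p = 0.00927). Both labelled libraries stood above the control for each of these, though library 2 and the control nearly met for KIF5C.

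Of the motors of endosomes, KIF16B had 4.35, 4.08 and 2.22 FPKM and rose by 0.93 (SE 0.25, edgeR adjusted p = 0.00396). KIF13A, which moves recycling endosomes, had 11.7, 8.12 and 7.16 FPKM and did not pass (log2 fold change 0.46, SE 0.19, edgeR adjusted p = 0.0645). Library 1 was the higher of the labelled libraries there. KIF13B, KIF21A and KIF21B also did not pass, at log2 fold changes of 0.27, 0.15 and 1.01, and KIF21B rested on 15 to 33 counts.

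The minus-end motors among them lay on the other side of the control. KIFC3, linked to cell junctions, had 17.5, 13.0 and 20.3 FPKM in labelled library 1, labelled library 2 and the control (log2 fold change -0.44, SE 0.18, edgeR adjusted p = 0.067). KIFC2 had 27.0, 27.0 and 28.8 FPKM (log2 fold change -0.12, SE 0.17, edgeR adjusted p = 0.653). Neither passed, so no fall was shown.

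Of the 9 other kinesins 6 were tested, and KIF2A alone rose (16.7%, against 16.5% of all tested genes). The median log2 fold change of the 6 was 0.84, where the mitotic median was 0.71. With the length trend removed it was 0.53, where the mitotic median was 0.39. KIF2A, a relative of KIF2C that takes apart microtubules at spindle poles and in neurons, had 17.6, 15.5 and 8.91 FPKM, a rise of 0.89 (SE 0.19, edgeR adjusted p = 0.000361). KIF2A overlaps DIMT1 in the RefSeq annotation. KIF7, a regulator of Hedgehog signalling at the tip of the cilium, had 6.52, 6.18 and 8.64 FPKM, with both labelled libraries below the control (log2 fold change -0.47, SE 0.20, edgeR adjusted p = 0.0745). KIF24, which acts at the centriole, had 1.42, 1.52 and 0.83 FPKM (log2 fold change 0.81, edgeR adjusted p = 0.0897). KIF9, a motor of motile cilia, had 2.13, 1.85 and 2.24 FPKM (edgeR adjusted p = 0.765). KIF27 did not pass at 0.87 on 14 to 25 counts (edgeR adjusted p = 0.214). KIF26A did not pass at 1.08 on 6 to 12 counts (edgeR adjusted p = 0.326). KIF6, KIF12 and KIF26B had at most 5 counts in any library and were not tested.

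**Figure D3:**
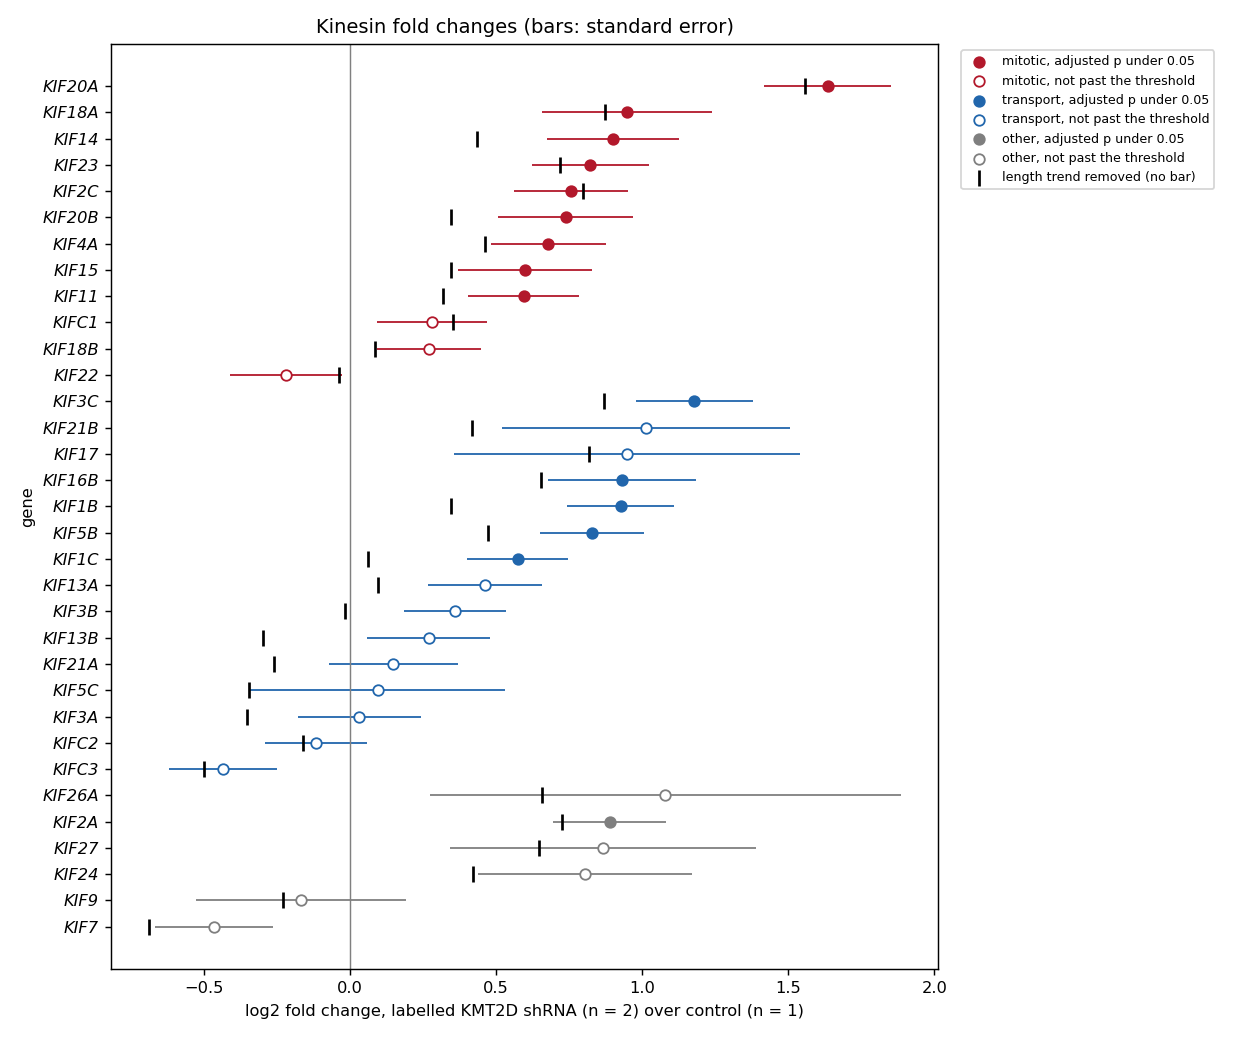
Points give the log2 fold change of each tested kinesin (2 labelled libraries over 1 control) with its standard error, filled where the edgeR adjusted p is under 0.05, and black ticks give the value with the length trend removed. KIF20A and KIF3C keep values of 1.56 and 0.87 at their ticks, while the ticks of KIF1C, KIF3B and KIF13A lie near 0.

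The comparison of mitotic with transport kinesins was read with and without the trend of fold change with transcript length. As fitted, the mitotic median exceeded the transport median by 0.25 on the log2 scale, or by 0.18 in library 1 and 0.32 in library 2. With the length trend removed it exceeded it by 0.33, with a transport median of 0.061 and a mitotic median of 0.39. With length and GC trends removed the difference was 0.29. The mitotic median was thus the higher one in each labelled library and under each of these fits. The genes of a class are not replicates, both libraries share 1 control, and no test of this difference was made.

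With the length trend removed 4 of 12 mitotic kinesins still rose (33.3%, against 9.06% of all tested genes). Of the 15 transport kinesins 1 did (6.67%, against the same 9.06%). The mitotic genes were KIF20A at 1.56 (edgeR adjusted p = 5.34e-06), KIF18A at 0.87 (adjusted p = 0.0336), KIF2C at 0.80 (adjusted p = 0.00421) and KIF23 at 0.72 (adjusted p = 0.0115). The transport gene was KIF3C at 0.87 (edgeR adjusted p = 0.0024). KIF2A kept its call at 0.73 (edgeR adjusted p = 0.00787), and KIF7 then fell by 0.69 on the log2 scale (edgeR adjusted p = 0.0152). With both trends removed KIF20A, KIF2C and KIF3C rose, of 33 kinesins tested, against 4.75% of all tested genes. The share of all genes that fell with the length trend removed was 8.8%. DESeq2's Wald test called KIF20A alone of the mitotic kinesins and KIF3C, KIF1B and KIF5B of the transport kinesins, against 6.53% of the genes to which it gave an adjusted p. By the other alternatives the share of all genes that rose was 16.8% with DESeq2 size factors, 13.2% with library totals, 5.74% without a filter on low counts, and 5.57% and 3.86% by limma on FPKM with a pseudocount of 1 and 0.1.

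**Figure D4:**
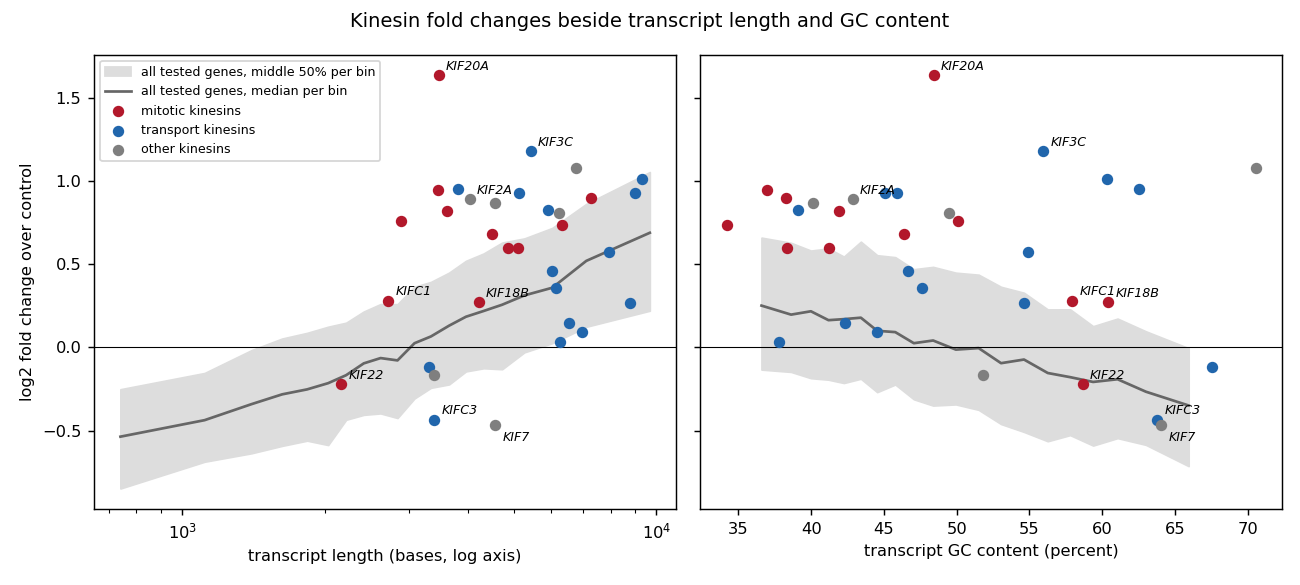
Each point is a tested kinesin, with its log2 fold change against transcript length (left, log axis) and transcript GC content (right). The grey line and band give the median and interquartile range of all tested genes in 20 bins, and KIF20A and KIF3C lie above the band in both panels, while KIF22 lies inside it.

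Genes that work with the mitotic kinesins were higher too. Of 15 listed partners all were tested, and 14 rose, 0 fell and 1 did not pass (93.3%, against 16.5% of all tested genes), with a median log2 fold change of 0.75. CENPE, a kinetochore kinesin without a KIF symbol, had 5.00, 4.29 and 1.71 FPKM and rose by 1.42 (SE 0.23, edgeR adjusted p = 4.11e-06). PRC1, the microtubule bundler that works with KIF4A, had 26.8, 21.3 and 9.99 FPKM and rose by 1.27 (SE 0.20, edgeR adjusted p = 2.28e-06). CIT, or citron kinase, rose by 1.21 and INCENP, the scaffold of the chromosomal passenger complex, by 1.21. AURKB, the kinase of that complex, did not pass, at 21.4, 16.0 and 18.7 FPKM (edgeR adjusted p = 0.963). With the length trend removed 12 of 15 rose and the median was 0.73. CENPE and CIT, with transcripts of 8630 and 8679 bases, were then at 0.86 and 0.65. PRC1 and INCENP were at 1.27 and 1.04. With length and GC trends removed CENPE and CIT did not pass (edgeR adjusted p = 0.0524 and 0.0517), while PRC1 and INCENP did. Of the 11 partners with a promoter entry 10 held the CHR core (90.9%).

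Cofactors and adaptors of transport kinesins rose in a share near that of all tested genes, and their values lay on both sides of the control. All 18 listed were tested, of which 3 rose, 1 fell and 14 did not pass. That is 16.7% that rose, against 16.5% of all tested genes, and 5.56% that fell, against 14.5%. The median log2 fold change was 0.029, in a range of -1.13 to 0.75. SPAG9, an adaptor that joins kinesin to its cargo, rose by 0.75 (edgeR adjusted p = 0.000803), TRAK2, a mitochondrial adaptor, by 0.58 (adjusted p = 0.0131) and RHOT1, its anchor on mitochondria, by 0.56 (adjusted p = 0.0436). MAPK8IP2, a scaffold that binds kinesin light chains, fell by 1.13 on the log2 scale (edgeR adjusted p = 0.0391). None of these 4 calls held with the length trend removed (adjusted p 0.0515 to 0.549). SPAG9 and TRAK2 were then at 0.22 and 0.17, while RHOT1 at 0.55 and MAPK8IP2 at -1.18 had nearly the same values as before. With that trend removed 0 of the 18 rose and 1 fell, PLEKHM2, which links lysosomes to kinesin (-0.57, edgeR adjusted p = 0.0188). The light chain genes KLC1 and KLC2 stood at log2 fold changes of 0.13 and -0.032 (edgeR adjusted p = 0.615 and 0.915), and KIFAP3, the subunit that links KIF3A and KIF3B to cargo, at -0.065 (adjusted p = 0.892). None of the 13 with a promoter entry held the CHR core.

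Dynein and dynactin form the main motor complex toward microtubule minus ends. Their genes rose in about the same share as all tested genes. Of 23 tested genes 4 rose, 2 fell and 17 did not pass (17.4% that rose, against 16.5% of all tested genes, and 8.70% that fell, against 14.5%), with a median log2 fold change of 0.13. DYNC1H1, the heavy chain, had 111, 125 and 47.0 FPKM and rose by 1.30 (SE 0.16, edgeR adjusted p = 1.33e-08), or by 0.48 with the length trend removed (adjusted p = 0.0405). Its transcript is 14361 bases long. BICD2, an adaptor that activates dynein, rose by 1.22 (edgeR adjusted p = 6.81e-06). The light chain genes DYNLT1 and DYNLL1 fell by 1.13 and 0.55 on the log2 scale (edgeR adjusted p = 2.07e-05 and 0.00898). Their transcripts are 774 and 736 bases long. With the length trend removed DYNLT1 still fell, by 0.60 (edgeR adjusted p = 0.0353), and DYNLL1 was at -0.0067 (adjusted p = 0.985). DYNLT1 passed under all 6 alternative count tests. Of the 23 genes 3 rose and 1 fell with that trend removed.

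**Figure D5:**
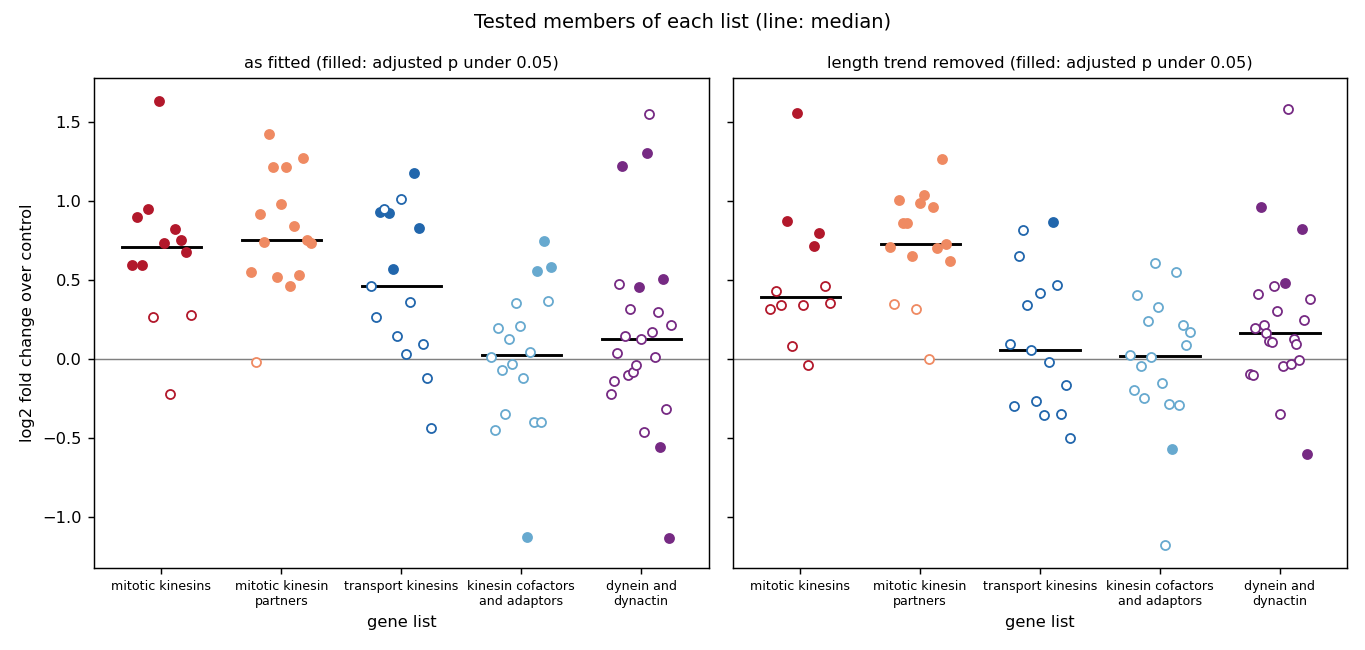
Points give the log2 fold change of the tested members of 5 gene lists as fitted (left) and with the length trend removed (right), filled where the edgeR adjusted p is under 0.05, with a line at each median. The medians of mitotic kinesins and their partners are 0.71 and 0.75 on the left and 0.39 and 0.73 on the right, and those of the other 3 lists lie at 0.17 or less on the right.

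Genes outside these lists were read beside the kinesins. The proliferation marker MKI67 stood at 253 and 226 CPM in the labelled libraries and 87.9 CPM in the control, and TOP2A, the topoisomerase of chromosome segregation, at 210, 195 and 57.0 CPM. MKI67 has a transcript of 11664 bases, and its log2 fold change of 1.45 was 0.73 with the length trend removed, where that of TOP2A went from 1.83 to 1.49. The interferon-induced gene ISG15 stood at 104 and 94.2 CPM against 3076 CPM in the control. The control differed from each labelled library by a chi-square of 40.9 and 40.2 per gene, where the labelled libraries differed by 5.31. The control had no replicate, so a state of that 1 library and an effect of the hairpins cannot be told apart.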

How the data were processed

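Messenger RNA of 3 PC-3 libraries was selected with oligo(dT) beads, reverse transcribed with random primers and sequenced, per the labels' protocols. The build hg19 and the aligners HISAT and Bowtie2 are named in the submitters' processing notes, without roles. What counted the reads is not given in the sources used here. The authors deposited expected counts, an estimate of reads for each gene without normalization, and 67.8% to 68.0% of them were whole numbers (exact integers). For 11 of the 38 kinesins they were not all whole. The FPKM values that the authors deposited are scaled by length and library total, per the file headers. A gene not listed in a library was taken as 0.

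Tables were joined on the Entrez identifier and named from RefSeq (GRCh38.p14, names, neighbours and promoters only; 99.5% matched). Counts were rounded and tested over all genes with edgeR 4.0.16 in R 4.3.3: default filter on low counts, TMM scaling, quasi-likelihood F test on group, Benjamini-Hochberg adjustment, threshold 0.05. The fit has 1 residual degree of freedom, and a biological coefficient of variation of 10.9%. SE values derive from the F statistic. Log2 ratios of single libraries were taken from CPM after adding a prior count of 2. CPM are TMM-scaled, and 3 counts, taken as the floor, were 0.545 to 0.591 CPM. Precision is that of counting and of the spread between 2 libraries. Reads carry no molecular identifiers.

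Alternatives were DESeq2 size factors, library totals, no filter, DESeq2 1.42.0, limma 3.58.1 on log2(FPKM + 1) and log2(FPKM + 0.1), and lowess trends (span 0.3) of fold change with transcript length, or length and GC content (GENCODE transcripts, 98.2% of tested genes), entered as offsets. The 6 alternative count tests are these without limma. Scripts were tested on simulated data, low-count genes included. The simulation changed 200 genes, gave all genes the same spread and held no length trend, so its shares may not hold for these libraries. The test called 13.6% of genes changed 1.5-fold, 56.25% changed 2-fold and 89.2% changed 4-fold, with 3 false calls. The criterion for a pass was narrowed to genes with more counts after that result was seen. A gene that did not pass may therefore still differ. The members, gene lists and alternatives were chosen with earlier results of these data known. Named genes were all mitotic and transport kinesins, other kinesins that passed or were among the 4 highest by FPKM, and on each further list up to 4 genes that passed, ranked by the less changed library, plus any that passed against the list median. KIF26A, KIF27, AURKB, KLC1, KLC2, KIFAP3, PLEKHM2, MKI67, TOP2A and ISG15 were added after their values were seen.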

Additional observations from a re-analysis of the deposited data

How the results depend on the processing

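The 9 mitotic kinesins that rose numbered 3 without a filter on low counts, 4 with the length trend removed, 2 with length and GC trends removed, 1 by DESeq2, and 3 and 1 by limma on FPKM with a pseudocount of 1 and 0.1. The 5 transport kinesins numbered 1 with either trend fit, 3 by DESeq2, and 3 and 2 by limma. The 1 other kinesin that rose numbered 0 with both trends removed, by DESeq2 and by limma with 0.1, and 1 other kinesin fell with the length trend removed. The 14 partners numbered 9 without a filter and with both trends removed, 7 by DESeq2, and 8 and 7 by limma. The 3 cofactors numbered 1 without a filter and by DESeq2, and 0 with either trend fit or limma. The 4 dynein and dynactin genes numbered 2 with library totals, without a filter, with both trends removed, by DESeq2 and by either limma. The share of all genes that rose also differed by setting. It was 16.5% as fitted, 13.2% with library totals and 5.74% without a filter. It was 9.06% with the length trend removed and 4.75% with both trends removed. By DESeq2 it was 6.53%, and by limma 5.57% and 3.86% with a pseudocount of 1 and 0.1. With the length trend removed 8.8% of all genes fell. The cause of these changes was not tested. The mitotic median was 0.73 with library totals, 0.39 and 0.37 with the trend fits and 0.61 by limma with a pseudocount of 1, and the transport median 0.061 and 0.081 with the trend fits. Leaving out 1 labelled library gave 0.68 to 0.70 and 0.37 to 0.52, and counts of calls could not be had, since 1 library against 1 leaves no test. KMT2D turned from 0.29 to -0.68 when the length trend was taken out (adjusted p = 0.00787 by edgeR) and -0.56 with both (adjusted p = 0.0692), and was 0.10 to 0.46 in single libraries.

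With the length trend removed, and with both trends removed, the sign turned for KIF13B (-0.30 and -0.25), KIF21A (-0.26 and -0.37), KIF3A (-0.35 and -0.46), KIF3B (-0.017 and -0.061) and KIF5C (-0.35 and -0.44), and with both for KIF22 (0.075) and KIFC2 (0.081). None of these had passed. No kinesin that passed changed sign under any alternative. No paired analysis was possible because the control group holds 1 library.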

Other observations

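KIFBP, which encodes a protein that binds kinesin motor domains and blocks them from microtubules, differed between the labelled libraries. It stood at 35.6 CPM in labelled library 1, 76.9 CPM in library 2 and 71.4 CPM in the control, a log2 ratio to the control of -0.998 in library 1 and 0.11 in library 2. As a group it did not pass (log2 fold change -0.35, SE 0.22, edgeR adjusted p = 0.245). The difference between the labelled libraries has no replicate and was not tested, and KIFBP was chosen after its values were seen.

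Summed over all 38 kinesins the deposited FPKM was 377 and 359 in the labelled libraries and 269.7 in the control, a ratio of 1.40 and 1.33. The sum over the 12 mitotic kinesins was 1.45 and 1.44 times that of the control, and the sum over the 17 transport kinesins 1.36 and 1.26 times. Summed FPKM of dynein and dynactin genes was 0.951 and 0.955 times that of the control. These sums were not adjusted for the length trend and are weighted by abundant genes. DYNLL1 and DYNLRB1, with transcripts of 736 and 702 bases, made 321 and 232 of the 1242 FPKM in the control. DYNC1H1 went the other way, as given above. With the length trend removed the median log2 fold change was 0.17 for dynein and dynactin and 0.061 for transport kinesins.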
